A study of Mus musculus with 28 samples.

Results

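NF-κB in macrophages is held back, switched off or adjusted by a small group of proteins. Of their genes, 9 were followed in bone marrow-derived macrophages (BMDMs) that had met von Willebrand factor (VWF) or lipopolysaccharide (LPS). The 9 genes were taken as a named list of 54532 genes in the count table, of which 30159 had at least 1 count, and all 9 were measured. They comprise the classical IκB genes Nfkbia (IκBα), Nfkbib (IκBβ) and Nfkbie (IκBε), the atypical IκB genes Nfkbiz (IκBζ), Nfkbid (IκBNS) and Bcl3, the gene of the ubiquitin-editing enzyme A20 (Tnfaip3), and Tnip1 and Tnip3, which encode the A20-binding proteins ABIN-1 and ABIN-3. Murine BMDMs, macrophages grown from bone marrow with M-CSF, were incubated with PBS alone (Control), 10 µg/ml plasma-derived VWF (pd-VWF) or 100 ng/ml LPS, for 3.5 h or 16 h. All cultures were in fresh medium with added calcium chloride, and the study's methods describe BMDMs as grown from marrow of C57/B6JB mice 8 to 12 weeks old, while the labels of these cultures name no strain, sex or age. There were 5 Control, 5 VWF and 4 LPS cultures at each time, 28 in all, called biological replicates in the labels. The labels do not say whether they came from separate mice, so p-values measure the spread between these cultures.

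Classical IκB proteins bind NF-κB dimers in the cytoplasm and keep them from the nucleus until IκB kinase marks the IκB for degradation. NF-κB then induces several of its own inhibitors, above all Nfkbia and Tnfaip3, which forms a negative feedback loop that is well known from macrophages given LPS. Atypical IκB proteins act in the nucleus, where they adjust the transcription of selected NF-κB target genes, IκBζ for example being needed for the induction of Il6 and Lcn2. A20 and the ABIN proteins act upstream, on the ubiquitin chains that carry the signal from receptors to IκB kinase.

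Promoter sequences were shown for 4 of the genes because their start regions hold the recognition sequence of NF-κB in different arrangements, and their transcripts are among those the results turn on. RefSeq windows on GRCm38.p6 were held for 8 of the 9 genes (11 windows, as Nfkbid had 3 starts and Tnfaip3 had 2), and the 250 bases before each start were searched on both strands for the classical NF-κB decamer consensus. In each line the bases run 5′ to 3′ on the strand of the gene, ending at the base before the start, and capitals mark decamers.
Nfkbia: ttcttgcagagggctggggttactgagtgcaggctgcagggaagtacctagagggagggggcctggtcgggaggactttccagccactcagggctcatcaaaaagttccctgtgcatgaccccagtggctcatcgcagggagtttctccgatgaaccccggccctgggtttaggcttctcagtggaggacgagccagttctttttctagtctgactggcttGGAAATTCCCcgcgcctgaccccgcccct
Tnfaip3: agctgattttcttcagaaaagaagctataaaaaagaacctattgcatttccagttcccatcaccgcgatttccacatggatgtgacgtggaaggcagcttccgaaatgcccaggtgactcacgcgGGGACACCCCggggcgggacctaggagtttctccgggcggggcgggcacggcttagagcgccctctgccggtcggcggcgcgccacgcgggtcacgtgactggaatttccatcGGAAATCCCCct
Tnip1: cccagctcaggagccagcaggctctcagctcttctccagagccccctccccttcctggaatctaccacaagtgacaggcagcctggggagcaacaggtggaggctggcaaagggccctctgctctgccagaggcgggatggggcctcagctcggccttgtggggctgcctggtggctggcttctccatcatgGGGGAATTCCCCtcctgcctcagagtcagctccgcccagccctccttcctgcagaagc
Nfkbid: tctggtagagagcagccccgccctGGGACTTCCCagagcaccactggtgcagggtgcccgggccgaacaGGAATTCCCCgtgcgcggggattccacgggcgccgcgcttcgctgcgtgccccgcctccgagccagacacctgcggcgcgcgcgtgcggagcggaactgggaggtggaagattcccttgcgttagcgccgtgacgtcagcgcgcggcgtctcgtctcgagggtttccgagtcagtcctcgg
The Nfkbia window is chr12:55492648-55492897 on the minus strand and the Tnfaip3 window, at the upstream of its 2 starts, is chr10:19015411-19015660 on the minus strand. The Tnip1 window is chr11:54962941-54963190 on the minus strand, and the Nfkbid window, at the second of its 3 starts, is chr7:30422156-30422405 on the plus strand. Nfkbia held 1 decamer that began 29 bases before the start. Tnfaip3 held 2, which began 125 and 12 bases before it. In Tnip1 a palindromic run was matched by 3 overlapping decamers 58 to 56 bases before the start, and Nfkbid held 2, at 226 and 181 bases. Nfkbie (GGGGGATTCC, 106 bases before the start) and Tnip3 (GGGAAATCCC, 54 bases before it) held 1 each, whereas the windows of Bcl3 and Nfkbib, the downstream Tnfaip3 window and the other Nfkbid windows held none of these letters. In total 6 of the 11 windows held a decamer, against 7.25% of the 32851 promoter windows of all genes. These are matches of letters, and no binding was measured. Which start these BMDMs used was not tested. The annotated start of Tnip3 lies far upstream of the RefSeq start. That of Nfkbid (chr7:30421732) lies next to the first of its RefSeq starts, whose window held no decamer, and upstream of the start shown.

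Between 41131209 and 77699206 counts fell on genes per culture (median 52986574), and the lowest value of any of the 9 genes rested on 377 counts. Levels are given as CPM, counts relative to library size after TMM scaling, and as CPM per kilobase of exon where genes are set side by side. All 7 macrophage markers examined reached 10 TPM, with a summed level of 5287 to 26478 CPM, while the 4 T cell markers summed to at most 0.846 CPM and the 3 mast cell markers to at most 0.646 CPM, with Mcpt4 and Tpsb2 at 0. The B cell marker Cd79b was at 0.832 to 12.8 CPM. The 4 fibroblast markers summed to between 14.9 and 408.5 CPM, in ranges that overlapped between all 6 groups. Control replicate 5 at 16 h stood apart, with the lowest level of 8 of the 9 genes in its group and a macrophage marker sum of 5287 CPM, against 14080 to 16574 CPM in the other 4 Controls. Replicate 4 of LPS at 16 h was lowest in its group for 9 of 9 genes and replicate 1 of LPS at 3.5 h likewise. The macrophage marker sum was lowest in these cultures too, at 7849 CPM against 11685 to 12718 CPM in the other LPS cultures at 16 h and at 8316 CPM against 12925 to 14370 CPM in those at 3.5 h. Without any one of these 3 cultures the log2 values of the 9 genes moved by at most 0.224, and the calls that changed are given with the comparisons.

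Across the 6 groups LPS cultures at 3.5 h had the highest mean level of 6 genes, VWF cultures at 3.5 h that of Nfkbiz and Tnip1, and Controls at 3.5 h that of Nfkbid. The lowest mean was that of Controls at 16 h for 8 genes, and that of VWF at 16 h for Nfkbid. Neighbours in the order overlapped at the top for Nfkbia, Nfkbie, Nfkbiz and Bcl3, where LPS and VWF at 3.5 h shared part of their range. They overlapped lower down for 6 genes (Nfkbia, Nfkbie, Nfkbiz, Bcl3, Tnip1 and Tnip3), whose VWF cultures at 16 h reached the range of Controls at 3.5 h. Other overlaps were those of VWF at 3.5 h with LPS at 16 h for Nfkbib, of LPS at 16 h with Controls at 3.5 h for Tnfaip3, of VWF with Controls at 16 h for Nfkbib and Tnip3, and of the 4 highest groups of Nfkbid, each with the next. Per kilobase, Nfkbia was the most abundant of the 9 in Controls at 3.5 h, at 121 ± 19.8 CPM per kilobase (SD, n = 5). Tnip1 followed with 27.0 ± 5.42 and Nfkbid with 22.3 ± 3.62 CPM per kilobase, and Nfkbiz was the lowest with 3.58 ± 0.663. The value of Tnip3 (7.27 ± 1.08) is divided by an exon length of 10916 bases that includes upstream exons, so its place among the genes is uncertain.

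**Figure D1:**
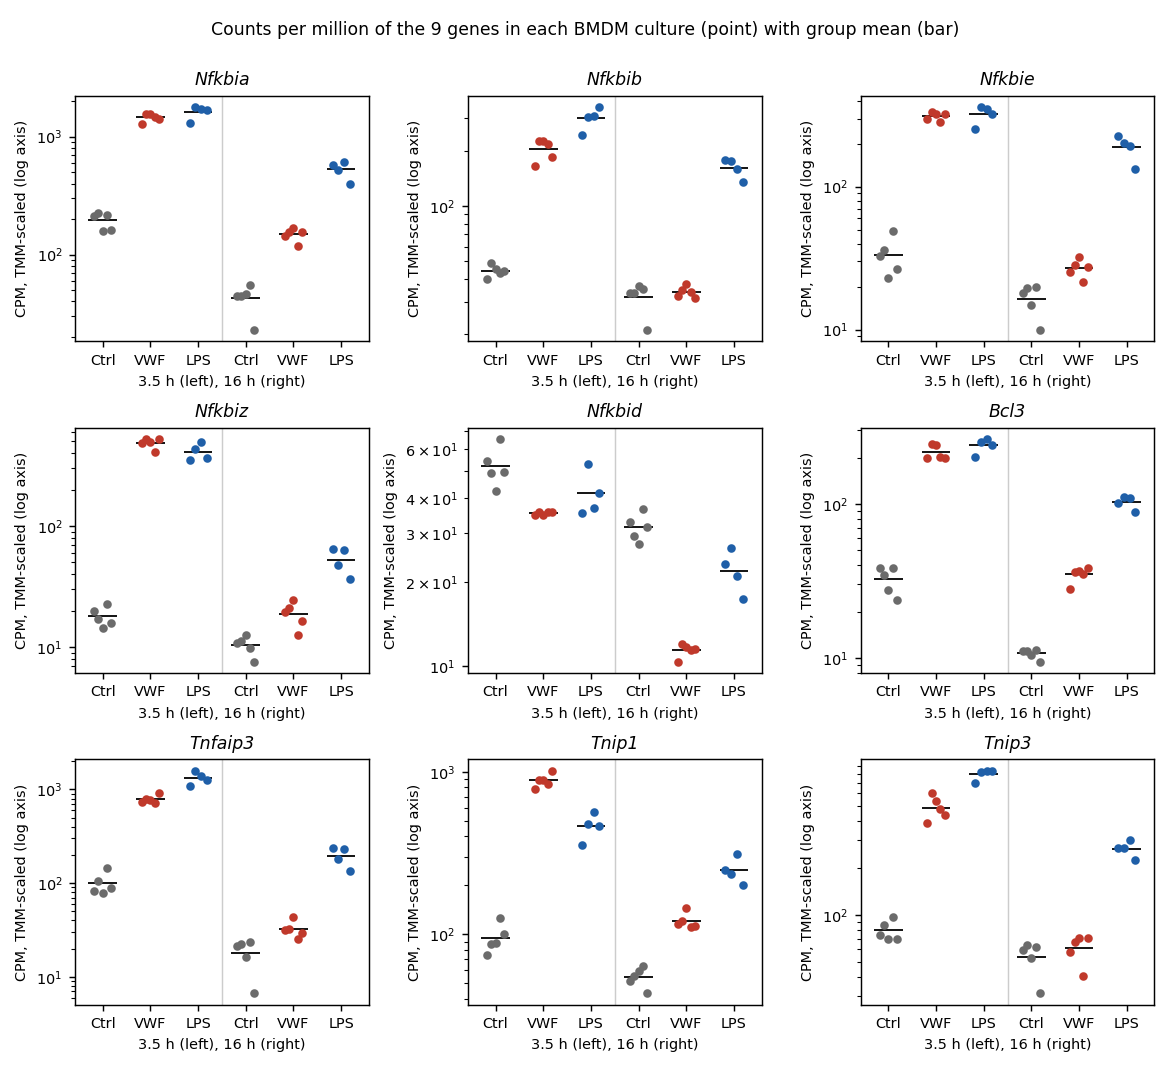
TMM-scaled CPM (log axis) of each of the 9 genes in every culture, with Controls in grey, VWF in red and LPS in blue, 3.5 h to the left and 16 h to the right of the line and a bar at each group mean. In 8 panels both agonist groups sit above Controls at 3.5 h, and LPS lies above both Controls and VWF at 16 h. VWF overlaps Controls at 16 h for Nfkbib, Nfkbiz and Tnip3. Nfkbid is lower with VWF than in Controls at both times.

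Whether VWF raises the transcripts of these genes early was addressed by VWF against Control at 3.5 h. Of the 9 genes, 8 rose and none fell at an adjusted p under 0.05 and a change of more than 2-fold, the rule used for every call below, whereas 9.1% of the 8200 genes tested rose. With library sizes in place of TMM factors 608 genes rose and 652 fell, against 746 and 458, as the median change of all genes then moved from -0.01 to -0.22 on the log2 scale. The median log2 change of the 9 was 2.81. All 5 VWF cultures lay above all 5 Controls for the 8 genes, and 21.7% of all genes tested did so.

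Nfkbia, the best-known target of the loop, stood at 210.9, 223, 157.5, 218.5 and 162 CPM in Controls 1 to 5. In VWF cultures 1 to 5 it stood at 1286, 1558.5, 1566, 1459 and 1396.5 CPM. The groups were far apart, and the gene rose 7.02-fold (log2 change 2.81 ± 0.132 SE, adjusted p = 1.99e-08). Nfkbiz, the IκB of secondary response genes, had the largest change, from 14.5, 15.7, 17.1, 19.8 and 22.8 CPM in the sorted Controls to 412.5, 488, 498, 519 and 525.9 CPM in the sorted VWF cultures. It rose 25.6-fold (log2 change 4.68 ± 0.155, adjusted p = 2.6e-09). Tnfaip3, the A20 gene, stood at 82.2, 104, 79.0, 146 and 88.7 CPM in Controls 1 to 5 and at 728, 784, 776, 722 and 917 CPM in VWF cultures 1 to 5. Its rise was 7.42-fold (2.89 ± 0.173, adjusted p = 1.11e-07). The ABIN-1 gene Tnip1 rose 8.75-fold, from 74.4 to 125.4 CPM in Controls to 788 to 1017 CPM with VWF. The remaining risers were Nfkbie (8.75-fold), Bcl3 (6.28-fold), Tnip3 (5.76-fold) and Nfkbib (4.32-fold), each with an adjusted p of at most 1.37e-07. In such bulk samples more cells with a transcript and more of it per cell cannot be told apart.

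Nfkbid, whose product adjusts NF-κB target genes in the nucleus, went the other way. It stood at 54.4, 49.4, 42.6, 65.55 and 49.6 CPM in Controls 1 to 5 and at 34.9, 35.7, 34.8, 35.6 and 35.8 CPM in VWF cultures. Every VWF culture was below every Control, as for 1067 of the 8200 genes tested, and VWF cultures differed little among themselves. The log2 difference of -0.65 ± 0.110 (adjusted p = 0.0005) was short of the 2-fold threshold.

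LPS, the reference agonist, gave the same 8 risers at 3.5 h, beside 12.8% of 8190 genes tested that rose, and all 4 LPS cultures lay above all 5 Controls for these 8, as they did for 27.2% of all genes. With library sizes alone 704 genes rose and 2213 fell, against 1047 and 963, at a median change of all genes of -0.55 in place of -0.02 on the log2 scale. The VWF and LPS comparisons share their Controls, so their values are set side by side only. Nfkbiz rose 22.1-fold with LPS, Tnfaip3 13.0-fold, Tnip3 9.76-fold, Nfkbie 9.32-fold, Nfkbia 8.06-fold, Bcl3 7.12-fold, Nfkbib 6.58-fold and Tnip1 4.72-fold, all at an adjusted p of at most 1.99e-07. Without LPS replicate 1 all 8 were again called, with log2 values that moved by 0.0487 to 0.102 over the 9 genes. The log2 difference of Nfkbid was -0.36 ± 0.159 (adjusted p = 0.0644). Its LPS cultures, at 35.4, 53.2, 37.0 and 42.0 CPM, overlapped the Controls. Summed CPM of the 3 dendritic cell markers was also higher at 3.5 h, going from 1.15 to 1.68 in Controls to 13.8 to 20.6 with VWF and 21.5 to 26.9 with LPS. That sum was mostly Xcr1, while Flt3 stayed at or below 0.204 CPM in all 28 cultures. The 5 neutrophil markers summed to 0.198 to 3.99 CPM in Controls, 2.02 to 9.27 with VWF and 3.34 to 8.63 with LPS. Among them Ly6g was at no more than 0.0330 CPM, Camp at up to 3.30 and Ngp at up to 6.42. Of the macrophage markers, mean Cd14 was 488 CPM in Controls, 2720 with VWF and 1964 with LPS, and mean Mertk 78.7, 13.0 and 45.5. Adgre1 and Itgam also had higher means with both agonists, and Cd68 and Lyz2 lower ones. Csf1r was higher with VWF and lower with LPS. The part of all these markers in the result was not tested.

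**Figure D2:**
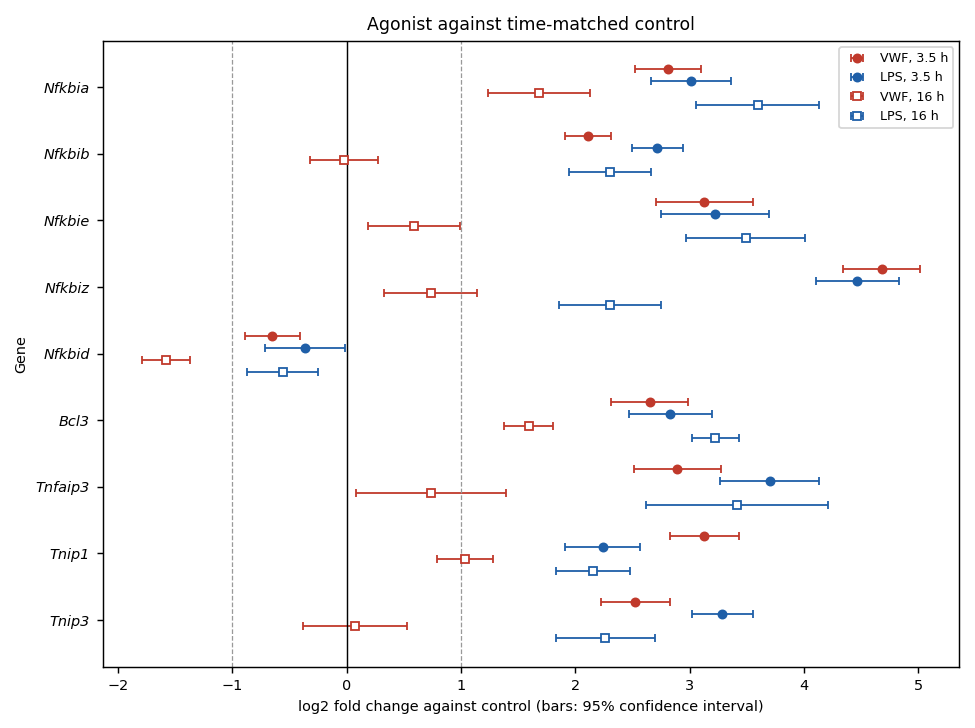
Log2 fold change of each gene against time-matched Controls for VWF (red) and LPS (blue) at 3.5 h (filled circles) and 16 h (open squares), with 95% confidence intervals and dashed lines at a 2-fold change. At 3.5 h both agonists lie between 2.11 and 4.68 for 8 genes, whereas at 16 h VWF lies between -0.03 and 1.68 for those genes and LPS between 2.15 and 3.60.

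The agonists were compared directly at 3.5 h, at their different doses. In edgeR's quasi-likelihood test 0 of the 9 genes were called, as with DESeq2 (0), beside 11.4% of the 7500 genes tested. At an adjusted p under 0.05 with no fold threshold 4 of the 9 differed, the same 4 whose 95% confidence interval left out a difference of 0, beside 50.2% of all genes, a share near the background. With library sizes alone 772 genes were called higher and 334 lower with VWF, against 353 and 503, as the median of all genes moved from 0.02 to 0.32.

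Tnip1 was higher with VWF, at 788, 884, 889, 838 and 1017 CPM in VWF cultures 1 to 5 against 354, 476, 562 and 464 CPM in LPS cultures 1 to 4. Every VWF culture was above every LPS culture, as for 1782 of the 7500 genes tested. The log2 difference of 0.92 ± 0.122 (adjusted p = 0.000135) was short of 2-fold with TMM factors. It was past 2-fold, as the 1 gene called, with library sizes alone (1.22). Tnfaip3 was lower with VWF, at 722 to 917 CPM against 1091, 1592, 1405 and 1259 CPM, a log2 difference of -0.78 ± 0.123 (adjusted p = 0.000438). Its ABIN-3 partner gene Tnip3 stood at 388 to 599 CPM with VWF against 702 to 839 CPM with LPS (-0.74 ± 0.118, adjusted p = 0.000483). Nfkbib stood at 165 to 227 CPM against 244 to 346 CPM (-0.58 ± 0.111, adjusted p = 0.00163).

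For 5 genes no difference between the agonists was detected at 3.5 h. The 95% confidence interval of the log2 difference, VWF minus LPS, ran from -0.41 to 0.06 for Nfkbia, from -0.30 to 0.17 for Nfkbie, from -0.02 to 0.49 for Nfkbiz, from -0.53 to 0.01 for Nfkbid and from -0.37 to 0.05 for Bcl3. With library sizes alone the sign of Nfkbia (0.13), Nfkbie (0.24), Nfkbid (0.04) and Bcl3 (0.14) was reversed, so no direction is given for them. Without LPS replicate 1 Nfkbia was at -0.26 (adjusted p = 0.0455), short of 2-fold.

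At 16 h 3 of the 9 genes rose with VWF, Nfkbia, Bcl3 and Tnip1, beside 4.55% of the 7798 genes tested. In Controls 1 to 5 at 16 h Nfkbia stood at 44.6, 44.1, 46.6, 55.1 and 23.0 CPM, and in VWF cultures 1 to 5 at 143, 156, 169, 117 and 156 CPM. The groups did not overlap, Control 5 was the lowest by far, and the gene rose 3.20-fold (log2 change 1.68 ± 0.202, adjusted p = 0.000121, and 1.53 without Control 5). Bcl3, which joins p50 and p52 dimers in the nucleus, rose 3.01-fold, from 9.45 to 11.3 CPM in Controls to 27.9 to 38.5 CPM with VWF (1.59 ± 0.0973, adjusted p = 1.42e-06). Tnip1 rose 2.05-fold, from 43.3 to 63.5 CPM to 110 to 145 CPM (1.03 ± 0.111, adjusted p = 5.67e-05). The change of Tnip1 was near the threshold and no longer passed it without Control 5 (0.97) or VWF replicate 3 (0.98), or with library sizes alone (0.97).

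Nfkbid was the 1 gene of the 9 that fell with VWF at 16 h, beside 4.15% of all genes tested. In Controls 1 to 5 it stood at 33.0, 29.2, 27.4, 36.6 and 31.5 CPM, and in VWF cultures at 10.4, 12.0, 11.7, 11.4 and 11.5 CPM. All VWF cultures were far below all Controls, with a 2.99-fold fall (log2 change -1.58 ± 0.0958, adjusted p = 1.35e-06). Of the 7798 genes tested, 645 had all VWF cultures below all Controls.

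The other 5 genes were not called with VWF at 16 h. Nfkbiz had a log2 difference of 0.73 ± 0.185 (adjusted p = 0.013) and Nfkbie one of 0.59 ± 0.182 (adjusted p = 0.0337, and up to 0.0797 when 1 culture was left out). Tnfaip3 stood at 21.2, 22.5, 16.3, 23.6 and 6.65 CPM in Controls 1 to 5 and at 31.6, 32.7, 43.8, 25.2 and 29.5 CPM with VWF. All VWF cultures of Tnfaip3 were above all Controls, yet the spread was large (0.73 ± 0.296, adjusted p = 0.0961, and 0.53, with an adjusted p under 0.05, without Control 5). Nfkbib (-0.03 ± 0.134) and Tnip3 (0.07 ± 0.204) showed no detectable difference, with 95% confidence intervals from -0.32 to 0.27 and from -0.38 to 0.53. In all, 5 of the 9 genes had every VWF culture above every Control at 16 h, beside 17.6% of all genes tested. The 7 macrophage markers summed to 17763 to 26478 CPM with VWF at 16 h, above all Controls. That sum was mostly Lyz2, with a mean of 17066 CPM with VWF and 9639 CPM in Controls. Adgre1, Csf1r, Itgam and Cd68 also had higher means with VWF. Cd14 (404 against 1157 CPM) and Mertk (42.9 against 57.2 CPM) had lower ones. The part of these markers in the result was not tested.

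With LPS the same 8 genes as at 3.5 h rose at 16 h against Controls, beside 15.3% of 7994 genes tested that rose, and all LPS cultures lay above all Controls for these 8, as for 25.7% of all genes. With library sizes alone 782 genes rose and 2319 fell, against 1221 and 989, at a median of -0.59 in place of -0.03. Nfkbia rose 12.1-fold, from 23.0 to 55.1 CPM to 574, 525, 611 and 399.5 CPM. Nfkbie rose 11.2-fold, Tnfaip3 10.7-fold, Bcl3 9.36-fold, Nfkbiz and Nfkbib 4.94-fold each, Tnip3 4.80-fold and Tnip1 4.45-fold, with adjusted p of at most 2.86e-05. All 8 were again called without Control 5, where Tnfaip3 moved most (3.20 in place of 3.41 on the log2 scale), and without LPS replicate 4, where Nfkbie was at 3.62 in place of 3.49. Nfkbid, at 23.2, 26.5, 21.0 and 17.45 CPM, lay below all Controls, as did 1712 of the 7994 genes tested. Its log2 difference of -0.56 ± 0.138 (adjusted p = 0.00684) passed 2-fold with library sizes alone (-1.11). The 3 endothelial markers summed to 52.2 to 78.4 CPM with LPS at 16 h against 1.66 to 2.52 CPM in Controls, mostly from Kdr, with Cdh5 at most 3.01 CPM in any culture. The 3 dendritic cell markers summed to 13.2 to 28.9 CPM with LPS, 0.938 to 2.70 with VWF and 0.573 to 1.55 in Controls at 16 h, and Cd79b averaged 1.73 CPM with LPS, 8.15 with VWF and 7.90 in Controls. Of the macrophage markers, mean Lyz2 was lower with LPS at 16 h (3804 CPM) than in Controls (9639 CPM), as was mean Csf1r. Cd14 (3575 against 1157 CPM), Adgre1, Cd68, Itgam and Mertk had higher means with LPS. The part of these markers in the result was not tested.

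The agonists were also compared directly at 16 h. The 8 genes called with LPS were called lower with VWF than with LPS, beside 14.5% of 7574 genes tested. For 9 of 9 genes every VWF culture was below every LPS culture, as for 24.9% of all genes. Library sizes alone gave 1772 genes higher and 687 lower, against 837 and 1095, at a median of 0.46 in place of 0.00. The gap was largest for Nfkbie, at 25.1, 28.4, 32.0, 21.4 and 27.4 CPM with VWF against 228, 202, 192 and 133 CPM with LPS, 7.20-fold lower (log2 difference -2.85 ± 0.171, adjusted p = 5.39e-07). Tnfaip3 was 6.17-fold lower, Nfkbib 4.86-fold, Tnip3 4.40-fold, Nfkbia 3.64-fold, Bcl3 3.00-fold and Nfkbiz 2.87-fold. Tnip1 was 2.10-fold lower (-1.07 ± 0.126) and lost its call without LPS replicate 3 (-0.97) or with library sizes alone (-0.62). Nfkbid (-0.98 ± 0.125, adjusted p = 7.99e-05) was just short of 2-fold and passed it without LPS replicate 3 (-1.02) or 4 (-1.08). So Nfkbid was lower with VWF than in both Controls and LPS cultures at 16 h. The VWF cultures of Nfkbia, Bcl3, Tnip1, Nfkbie and Tnfaip3 lay between Controls and LPS cultures with no overlap. Of these, Nfkbie and Tnfaip3 were not called against Controls. The macrophage markers summed to 17763 to 26478 CPM with VWF against 7849 to 12718 CPM with LPS, mostly from Lyz2 (means 17066 and 3804 CPM). Adgre1, Csf1r and Itgam also had higher means with VWF. Cd14 (404 against 3575 CPM), Mertk (42.9 against 84.0) and Cd68 (757 against 909) had lower ones. The endothelial markers summed to 3.90 to 6.46 against 52.2 to 78.4 CPM and the dendritic cell markers to 0.938 to 2.70 against 13.2 to 28.9 CPM. The part of all these markers in the result was not tested.

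Levels also moved with time in PBS alone. Of the 9 genes, 3 fell from 3.5 h to 16 h in Controls, beside 5.09% of 8333 genes tested, and for all 9 every 16 h Control was below every 3.5 h Control, as for 20.3% of all genes. Tnfaip3 fell 5.39-fold (log2 change -2.43 ± 0.316, adjusted p = 0.000234), Nfkbia 4.44-fold (-2.15 ± 0.213) and Bcl3 2.95-fold (-1.56 ± 0.152). Without Control 5 at 16 h the log2 change of Tnfaip3 was -2.22 and that of Nfkbia -1.997. Nfkbie, at -0.99 ± 0.236, was just short of 2-fold and was called without any one of 5 cultures (-1.11 to -1.02), namely 3.5 h Controls 3 and 5 and 16 h Controls 1, 2 and 4, and with library sizes alone (-1.002). The remaining log2 changes ran from -0.76 (Tnip1) to -0.43 (Nfkbib).

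In VWF cultures all 9 genes fell from 3.5 h to 16 h, beside 12.2% of 7927 genes tested, and no 16 h culture reached any 3.5 h culture, as for 28.8% of all genes. The falls were 25.1-fold for Nfkbiz, 23.3-fold for Tnfaip3, 11.2-fold for Nfkbie, 9.47-fold for Nfkbia, 7.62-fold for Tnip3, 7.04-fold for Tnip1, 6.02-fold for Bcl3, 5.77-fold for Nfkbib and 2.99-fold for Nfkbid. In LPS cultures 5 genes fell, beside 13.5% of 6987 genes tested, and for all 9 every 16 h culture was below every 3.5 h culture, as for 28.6% of all genes. These were Nfkbiz (7.44-fold), Tnfaip3 (6.51-fold), Nfkbia (2.94-fold), Tnip3 (2.88-fold) and Bcl3 (2.23-fold). Nfkbib, Nfkbie, Nfkbid and Tnip1 had log2 differences from -0.87 to -0.71 in LPS cultures, all with an adjusted p of at most 0.00708. A fall of Nfkbia, Bcl3 and Tnfaip3 with time was thus seen in each treatment, Controls included, and the change against Controls was tested as an interaction.

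That test asks whether the effect of an agonist at 16 h differs from its effect at 3.5 h. The VWF effect was smaller at 16 h for 8 of the 9 genes, beside 7.77% of 8660 genes called lower. The loss was largest for Nfkbiz (log2 difference -3.91 ± 0.233, adjusted p = 1.97e-10), followed by Nfkbie (-2.50 ± 0.264), Tnip3 (-2.42 ± 0.247), Tnfaip3 (-2.11 ± 0.346), Nfkbib (-2.10 ± 0.156) and Tnip1 (-2.06 ± 0.170). Nfkbia (-1.09 ± 0.233, adjusted p = 0.00102) and Bcl3 (-1.03 ± 0.176, adjusted p = 0.000126), the genes with the largest VWF effect at 16 h, lost the least of the 8. Both were near the threshold, and neither was called with library sizes alone (-0.99 and -0.90), which moved the median of all genes from 0.01 to 0.14. Nfkbia was not called without 16 h Control 4 (-0.99). Bcl3 was not called without 3.5 h Control 3 or 5, VWF 3.5 h replicate 2 or VWF 16 h replicate 1 (-0.98 to -0.93). Nfkbid (-0.90 ± 0.147, adjusted p = 7.18e-05) moved the same way, its difference from Controls being more negative at 16 h, and was called without 3.5 h Control 4 (-1.01).

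For LPS the effect was smaller at 16 h for Nfkbiz (-2.15 ± 0.256, adjusted p = 2.74e-06) and Tnip3 (-1.01 ± 0.227, adjusted p = 0.00147), beside 12.8% of 8748 genes called lower. The call of Tnip3 stood at the threshold and was lost (-0.99 to -0.94) without any one of 9 cultures, which were 3.5 h Controls 1, 3 and 5, 16 h Controls 1, 2 and 4, LPS 3.5 h replicates 2 and 4, and LPS 16 h replicate 4. With the replicate number as a block it was lost as well (-0.97), so that 1 gene in place of 2 was called. The other 7 genes did not pass the adjusted threshold. The 95% confidence interval ran from 0.02 to 1.18 for Nfkbia (0.60, adjusted p = 0.0827), from 0.02 to 0.80 for Bcl3, from -0.39 to 0.96 for Nfkbie and from -1.11 to 0.59 for Tnfaip3. For Tnip1 it ran from -0.53 to 0.40, for Nfkbid from -0.64 to 0.29 and for Nfkbib from -0.78 to -0.02 (adjusted p = 0.0777).

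The difference between VWF and LPS cultures was more negative at 16 h than at 3.5 h for 8 genes, beside 14.3% of 8217 genes called lower, and this comparison uses no Controls. With library sizes alone 1176 genes were called higher and 893 lower, against 879 and 1173, at a median of 0.10 in place of -0.08. Nfkbie had the largest shift (-2.80 ± 0.195, adjusted p = 4.87e-09), and Tnip3 the smallest called one (-1.42 ± 0.197, adjusted p = 1.19e-05). Tnip1, which was higher with VWF at 3.5 h and lower at 16 h, shifted by -2.01 ± 0.178 (adjusted p = 7.57e-08). Nfkbid shifted by -0.74 ± 0.166 (adjusted p = 0.00127), short of 2-fold.

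**Figure D3:**
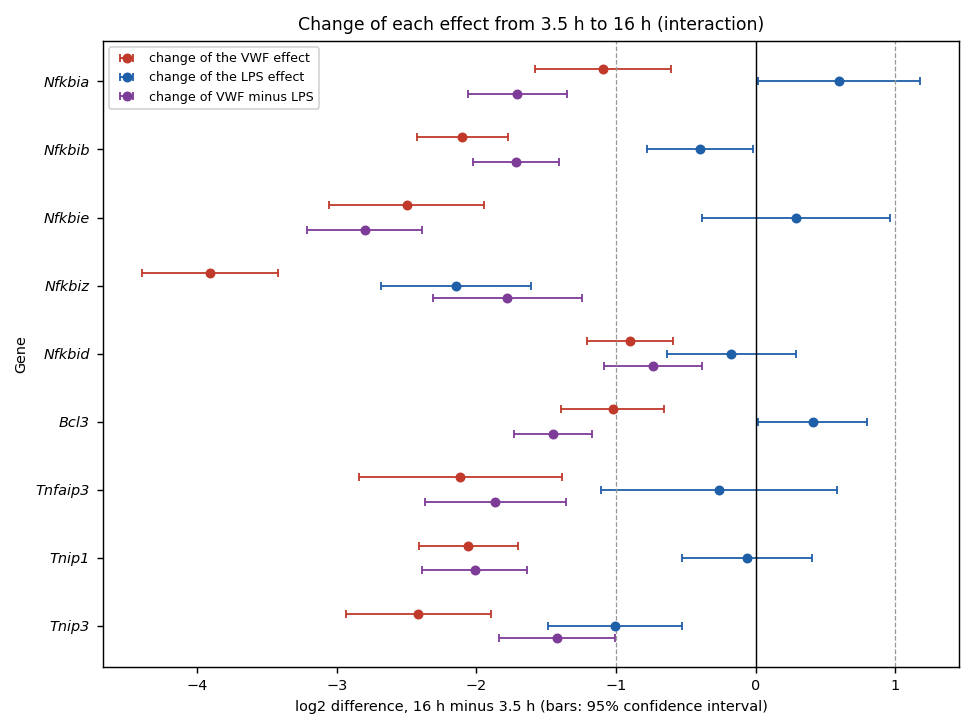
Change of each effect from 3.5 h to 16 h on the log2 scale for the VWF effect (red), the LPS effect (blue) and the VWF minus LPS difference (purple), with 95% confidence intervals and dashed lines at a 2-fold change. The VWF effect and the VWF minus LPS difference are below 0 for all 9 genes, and the LPS effect is past -1 for Nfkbiz and Tnip3.

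The 3 classical IκB transcripts were summed per kilobase to see their make-up. The sum was 152 ± 22.6 CPM per kilobase (SD, n = 5) in Controls at 3.5 h, 1099 ± 88.8 with VWF and 1253 ± 171 (n = 4) with LPS. At 16 h it was 46.7 ± 11.3 in Controls, 117 ± 13.9 with VWF and 464 ± 76.1 with LPS. Nfkbia made up 79.2% ± 1.81 of it in Controls at 3.5 h, 82.1% ± 0.237 with VWF and 80.4% ± 0.537 with LPS. At 16 h its share was 56.3% ± 2.72 in Controls, 78.9% ± 1.56 with VWF and 70.5% ± 2.14 with LPS, and no culture of one group reached another group there. Nfkbib took 32.1% ± 2.64 in Controls at 16 h, its highest share, and Nfkbie took 13.3% ± 1.20 with LPS at 16 h, against 7.55% ± 0.230 with VWF.

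Set against the summed level of the 5 NF-κB subunit genes (Rela, Relb, Rel, Nfkb1 and Nfkb2), the classical sum was 1.86 ± 0.190 times as high in Controls at 3.5 h. The ratio was 3.01 ± 0.180 with VWF and 2.94 ± 0.186 with LPS. At 16 h it was 0.883 ± 0.220 in Controls, with 0.493 the lowest culture and 1.02 the highest. With VWF it was 1.62 ± 0.128 (1.41 to 1.73) and with LPS 2.74 ± 0.257 (2.39 to 2.94), so that the 3 groups did not overlap at 16 h. The ratio lies within a culture and does not depend on the scaling between cultures. It is a ratio of transcripts, and protein was not measured.

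**Figure D4:**
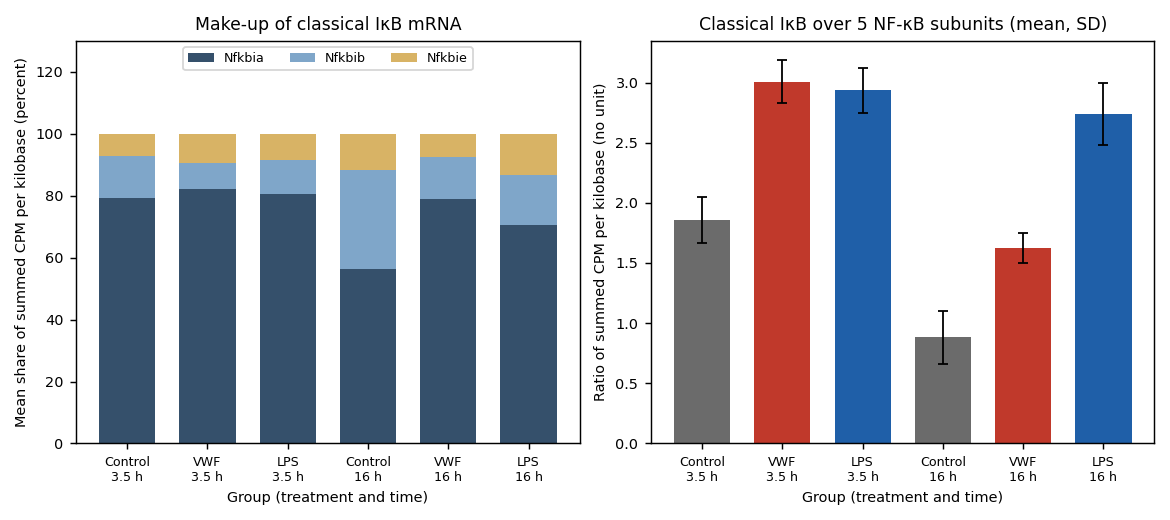
Left, mean share of Nfkbia, Nfkbib and Nfkbie in their summed CPM per kilobase in each group, stacked to 100 percent, and right, mean ratio (SD bars) of that sum to the summed CPM per kilobase of 5 NF-κB subunit genes. The ratio is 3.01 with VWF and 2.94 with LPS at 3.5 h and 1.62 and 2.74 at 16 h.

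Among the atypical IκB genes the summed level was 39.0 ± 6.45 CPM per kilobase in Controls at 3.5 h and was mostly Nfkbid (57.3% ± 3.20). With VWF at 3.5 h it was 200 ± 15.7 and Nfkbiz (48.6% ± 2.53) and Bcl3 (43.8% ± 2.56) made up most of it. With VWF at 16 h the sum, 22.7 ± 2.07, was close to that of the 16 h Controls (19.8 ± 1.56), yet Bcl3 took 62.0% ± 3.64 of it and Nfkbid 21.5% ± 1.04, against 21.8% ± 1.31 and 67.7% ± 3.49 in Controls. No culture of either group reached the other in these shares.

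The rest of the pathway was counted from 6 lists. Genes that rose stand beside 9.1% of all genes with VWF and 12.8% with LPS at 3.5 h, and 4.55% and 15.3% at 16 h. Those that fell stand beside 458 of all 8200 genes tested with VWF and 963 of 8190 with LPS at 3.5 h. At 16 h 324 of 7798 fell with VWF and 989 of 7994 with LPS. All 5 subunit genes rose at 3.5 h with VWF and with LPS. With VWF these included Nfkb2 (log2 change 2.80 ± 0.112) and Nfkb1 (2.25 ± 0.153), and with LPS Nfkb2 (3.26 ± 0.134) and Rel (2.33 ± 0.168). At 16 h 2 rose with VWF, Relb (1.31 ± 0.160) and Nfkb2 (1.06 ± 0.0697), while 1 fell, Rel (-1.05 ± 0.116). With LPS at 16 h 3 rose, Nfkb2 (2.80 ± 0.0966), Relb (2.36 ± 0.185) and Nfkb1 (1.09 ± 0.147). Relb and Nfkb2 encode the subunits of the alternative pathway.

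Of 10 genes tested among the IκB kinase complex and its upstream kinases and adaptors, 2 rose with VWF at 3.5 h, Traf2 (1.37 ± 0.135) and Tab2 (1.13 ± 0.0817), adaptors of the upstream kinases. With LPS the same 2 rose, Traf2 (1.98 ± 0.135) and Tab2 (1.54 ± 0.0781), and Tab1 fell (-1.42 ± 0.112). At 16 h the log2 differences of the 10 tested with VWF ran from -0.08 to 0.81, short of the threshold, and of 9 tested with LPS 1 rose, Traf2 (2.002 ± 0.302), a share near or below that of all genes. Of the 3 genes of the linear ubiquitin assembly complex 1 rose, Rnf31, which encodes its catalytic subunit, by 1.94 ± 0.118 with VWF and 2.80 ± 0.110 with LPS at 3.5 h. At 16 h Rnf31 rose with LPS (2.44 ± 0.0839) and had a log2 difference of 0.41 with VWF, the other members of the complex lying between -0.13 and 0.10.

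Of 7 other A20 partners, relatives and deubiquitinases tested at 3.5 h the log2 differences with VWF ran from -0.14 (Otulin) to 0.83 (Tnip2), short of the threshold, and 1 rose with LPS, Tnip2 (1.12 ± 0.130), the gene of ABIN-2. At 16 h those of 6 tested with VWF ran from -0.60 to 0.01, and 1 of 7 rose with LPS, Tax1bp1 (2.43 ± 0.121), an adaptor of A20, again a share near or below that of all genes. Of the IκB-interacting Ras-like genes 1 was tested, and Nkiras2 rose with LPS at 16 h (1.18 ± 0.124), against 0.51 with LPS and -0.16 with VWF at 3.5 h and -0.22 with VWF at 16 h.

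The last list held 4 genes known to need IκBζ for their induction. Il6, Il12b and Lcn2 rose with both agonists at 3.5 h, while Csf2 was below the filter. Il6 stood at 0.0623 to 0.165 CPM in Controls, 47.6 to 133 CPM with VWF and 311 to 544 CPM with LPS. Il12b, at 0.0131 to 0.0826 CPM in Controls, stood at 84.6 to 178 CPM with VWF and 22.6 to 51.3 CPM with LPS. At 16 h Lcn2 alone was tested with VWF and rose, from 0.202 to 1.78 CPM in Controls to 56.5 to 108 CPM with VWF, and Lcn2, Il6 and Il12b rose with LPS. Lcn2, which encodes an iron-siderophore binding protein, stood at 456 to 669 CPM with LPS at 16 h. Il6 with VWF at 16 h was at 0.169 to 0.404 CPM.

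Across all 28 cultures the log2(CPM + 1) levels of the 8 genes other than Nfkbid went together, with Pearson's r from 0.899 to 0.990 (median 0.951) over 28 pairs. Nfkbid had an r of 0.155 to 0.428 with them. Within groups, after the group means were taken away, the 8 had an r of 0.318 to 0.895 (median 0.656). These values describe 28 cultures that share treatments, library preparation and scaling, and are given with no test. With the 9 genes themselves left out, the most similar patterns among 8858 genes were those of Relb (r = 0.991) and Sbno2 (0.988) for Nfkbia, Stx11 (0.985) and Rnf14 (0.980) for Nfkbib, and Cflar (0.988) and Jak2 (0.982) for Nfkbie. They were those of Foxp4 (0.990) and Jdp2 (0.989) for Nfkbiz, Nfkb2 (0.988) and Ehd1 (0.987) for Bcl3, and Larp1 (0.986) and Sbno2 (0.984) for Tnfaip3. For Tnip1 they were those of Slc7a11 (0.986) and Pde4b (0.983), and for Tnip3 Stx11 (0.987) and Kremen1 (0.984). Within the 9 the closest pairs were Nfkbia with Bcl3 (0.9904) and Nfkbib with Tnip3 (0.987).

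Nfkbid was matched most closely by Fzd7, a Wnt receptor gene (r = 0.953), and Emp1, a membrane protein gene (r = 0.9498). Fzd7 stood at 62.7 to 96.8 CPM in Controls, 32.0 to 48.9 with VWF and 42.2 to 65.7 with LPS at 3.5 h. At 16 h it stood at 32.6 to 45.0 in Controls, 11.1 to 15.6 with VWF and 22.9 to 37.7 with LPS, so that as for Nfkbid the VWF cultures were the lowest. Slc7a11, the cystine transporter gene that ran with Tnip1, was likewise higher with VWF (246 to 392.3 CPM) than with LPS (90.0 to 129 CPM) at 3.5 h and lower at 16 h (14.1 to 26.8 against 62.1 to 89.9 CPM). Fzd7 and Slc7a11 were picked by correlation over these same cultures, so their likeness to Nfkbid and Tnip1 is no separate evidence.

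Exons of 2 of the 9 genes overlap other genes, and the strand setting of the counting was not given in the sources used here. Nfkbib (chr7:28758251-28767512, minus strand, GRCm38) shares 42 exon bases, 1.94% of its exon length, with Sirt2 on the opposite strand. The median count of Sirt2 was 6414, against 3136 for Nfkbib. It also shares 314 bases (14.5%) with Ccer2, whose median count was 0. Any part of Sirt2 reads in the Nfkbib counts was not tested. Bcl3 (chr7:19808462-19822770, minus strand) shares 161 bases (6.505%) with the antisense gene Gm16175, whose median count was 3 against 2963 for Bcl3. Nfkbia lies at chr12:55489410-55492647, Nfkbie at chr17:45555703-45563169, Nfkbiz at chr16:55811375-55838899 and Nfkbid at chr7:30421732-30428746. Tnfaip3 lies at chr10:19000910-19015657, Tnip1 at chr11:54910785-54962917 and Tnip3 at chr6:65525313-65634040.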

How the data were processed

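Total RNA of 28 BMDM cultures was sequenced as paired-end reads, which the authors mapped to GRCm38 (mm10) and quantified with STAR, as stated in the study's methods and the submitters' processing notes. The deposited values are raw counts per Ensembl gene, with no normalization. The annotation release, strand setting and treatment of multimapping reads were not given in the sources used here. Symbols, positions and exon lengths came from a GRCm38 annotation.

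Genes below 10 TPM in every culture of a comparison were left out, the filter of the study's methods, and all 9 genes passed it in all 12 comparisons. Counts were scaled by TMM and tested with edgeR's quasi-likelihood test (edgeR 4.0.16, R 4.3.3), fitted on the groups compared, with Benjamini-Hochberg adjustment over all genes tested. A call needed an adjusted p under 0.05 and an absolute log2 change above 1. Standard errors are the log2 change over the square root of F. TMM-scaled CPM over all 28 cultures gave the levels.

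The alternatives were DESeq2 1.42.0, median-of-ratios factors, library sizes alone, no filter, filterByExpr, 1 fit over all groups, no fold threshold, a block for the replicate number, and fits without 1 culture at a time. On simulated counts for VWF against Control at 3.5 h (8200 genes, 200 changed by 2 on the log2 scale) 99.5% were recovered with 0 false calls. For LPS against Control at 16 h (7994 genes) 93.0% were recovered with 3 false calls. Both groups were simulated from Control means and Control spread, with 200 genes changed at random. The shift in scaling between groups was therefore not simulated, and the recovery does not bear on it. Replicate numbers are shared between groups. Deviations from group means of same-numbered cultures correlated above 0.1 in every pair for VWF against LPS at 16 h alone (0.191 to 0.850 over 4 pairs). For LPS against Control at 16 h they ran from -0.775 to 0.719. The labels do not say that same-numbered cultures were paired. All main fits, that of VWF against LPS at 16 h included, were unpaired, and the block was an alternative only.

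The 9 genes and the gene lists were chosen with earlier results of these data known. Named besides the 9 were, per list and comparison with Controls, at most the 2 called genes of largest change, and per gene the 2 others of highest correlation. Rel and Nfkb1 at 16 h, Tab1, Fzd7 and Slc7a11 levels, and Il6 and Il12b levels, and the uncalled list genes, were chosen for mention after their values were seen. Cultures within groups differed beyond counting noise (lowest chi-square per degree of freedom 15.8 over 52 pairs).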

Additional observations from a re-analysis of the deposited data

Results flagged for a closer look

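A culture far from the others of its group was found in 2 of 54 sets of a gene and a group, where chance gives about 1 in 20. Control 5 at 16 h was low for Nfkbib, its gap to the next culture being 0.787 of the group's range, and LPS replicate 1 at 3.5 h was low for Tnip3, with a gap of 0.837 of the range.

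The effect of an agonist differed between times, or the agonists differed in their change with time, in 18 interaction tests that were called. For the VWF effect 8 of 9 genes were called, beside 7.77% of all genes called lower. For the LPS effect 2 of 9 were called, beside 12.8%, and for the VWF minus LPS difference 8 of 9, beside 14.3%. The VWF effect changed from 3.5 h to 16 h by -3.91 on the log2 scale for Nfkbiz, -2.50 for Nfkbie, -2.42 for Tnip3, -2.11 for Tnfaip3, -2.10 for Nfkbib, -2.06 for Tnip1, -1.09 for Nfkbia and -1.03 for Bcl3. The LPS effect changed by -2.15 for Nfkbiz and -1.01 for Tnip3, whose call was lost without any one of 9 cultures. The VWF minus LPS difference changed by -2.80 for Nfkbie, -2.01 for Tnip1, -1.86 for Tnfaip3, -1.78 for Nfkbiz, -1.72 for Nfkbib, -1.71 for Nfkbia, -1.45 for Bcl3 and -1.42 for Tnip3.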

How the results depend on the processing

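Of 2016 values recomputed for the 9 genes in 12 comparisons, 1966 kept their direction and side of the threshold, 22 lost and 14 gained a call, and 14 changed sign, none of which had been called. With no fold threshold 4 of the 9 genes were called for VWF against LPS at 3.5 h (in place of 0), beside 3768 of all 7500 genes tested. For Controls at 16 h against 3.5 h 9 were called (in place of 3), beside 3429 of 8333 genes. For LPS at 16 h against 3.5 h 9 were called (in place of 5), beside 4257 of 6987 genes. With library sizes alone 1 gene, Tnip1, was called for VWF against LPS at 3.5 h, and the log2 differences of Nfkbia (0.13), Nfkbie (0.24), Nfkbid (0.038) and Bcl3 (0.14) had the opposite sign. Without a filter (0.043) and with filterByExpr (0.037) Nfkbib had the opposite sign for VWF against Control at 16 h. With the replicate number as a block 1 gene in place of 2 was called for the change of the LPS effect, Tnip3 being at -0.97. The block changed no other call of the 9 genes, in the comparison of VWF with LPS at 16 h included.

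Leaving out 1 culture gave 1 to 2 called genes for the change of the LPS effect, 3 to 4 for VWF against Control at 16 h, 3 to 4 for Controls over time, 8 to 9 for VWF against LPS at 16 h and 7 to 9 for the change of the VWF effect, and the main count in the other comparisons. Signs that changed were those of Nfkbie for VWF against LPS at 3.5 h (-0.15 to 0.010), Nfkbib (-0.14 to 0.025) and Tnip3 (-0.064 to 0.19) for VWF against Control at 16 h, and Tnip1 for the change of the LPS effect (-0.19 to 0.020). The lowest count behind any of these values was 377. The cause of these changes was not tested.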
